A study of Mus musculus with 48 samples.

Results

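The genes described here are 10 apolipoprotein genes that the mouse liver transcribes: Apoa1, Apoa2, Apoa4, Apoa5, Apob, Apoc1, Apoc2, Apoc3, Apoe and Apom. They were chosen by symbol, matched to the gene identifiers of the RNA tables, by a rule that uses no measured value, though earlier results of these data were known when they were chosen. They are 10 of the 16269 genes that have both an RPF and an RNA table, and of the 20622 genes of the RNA tables. All 10 had counts in every library and passed the filter on low counts in each comparison. RPFs (ribosome-protected fragments) are the stretches of mRNA that a translating ribosome shields from nuclease, so their count follows how many ribosomes sit on an mRNA. Cytoplasmic RNA was sequenced from the same lysates, and the ratio of RPFs to RNA is the translation efficiency (TE).

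Livers came from 24 male mice aged 2 to 4 months, each sample an individual mouse, with 3 mice in each of 4 genotypes at each of 2 days. B mice carried Ctnnb1ex3/+, 1 allele from which Cre removes exon 3 and so makes a stabilised β-catenin. M mice carried R26-LSL-MYC, from which Cre releases MYC expression, and BM mice carried both (Ctnnb1ex3/+; R26-LSL-MYC). WT mice carried neither allele. All mice, WT included, received AAV8.TBG.Cre, in which the TBG promoter limits Cre to hepatocytes, and livers were taken 4 or 10 days later. Induction was staggered so that all mice were harvested together. The alleles are therefore changed in hepatocytes while other liver cells stay unmodified, and the libraries are from whole tissue, in which fewer cells of a type and less RNA per cell cannot be told apart. Every comparison with WT on a day uses the same 3 WT mice.

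Apolipoproteins are the protein part of the particles that carry cholesterol and triglyceride in blood, and the hepatocyte makes and secretes most of them. Apob is the scaffold of very low density lipoprotein, Apoa1 and Apoa2 form the shell of high density lipoprotein, and Apoe lets remnants bind to receptors. The small C apolipoproteins and Apoa5 tune lipoprotein lipase in the capillaries, with Apoc2 as its cofactor, Apoc3 as its brake and Apoa5 as a helper of lipolysis, while Apoa4 and Apom travel mostly on high density lipoprotein, Apom as the carrier of sphingosine-1-phosphate.

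The members lie in clusters (GRCm39). Apoa1 (chr9:46139878-46142212, plus strand), Apoc3 (chr9:46142527-46146934, minus strand), Apoa4 (chr9:46151994-46154757, plus strand) and Apoa5 (chr9:46179931-46183217, plus strand) are neighbours on chromosome 9. Apoc2 (chr7:19405504-19411877), Apoc1 (chr7:19422540-19427328) and Apoe (chr7:19430034-19434947) are neighbours on the minus strand of chromosome 7. Apoa2 (chr1:171049125-171053948, plus strand), Apob (chr12:8027648-8066835, plus strand) and Apom (chr17:35347973-35351026, minus strand) stand alone.

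The RPF count of a gene covers the coding sequence of its most abundant transcript without the first 20 and the last 10 codons, which leaves few positions in the shortest members. The coding sequences of Apoa5 and Apoc2 are shown because the counting bears most on these 2 genes. Capitals mark the codons in which RPFs were counted, and the sequences are those of the GENCODE vM39 transcripts.
Apoa5: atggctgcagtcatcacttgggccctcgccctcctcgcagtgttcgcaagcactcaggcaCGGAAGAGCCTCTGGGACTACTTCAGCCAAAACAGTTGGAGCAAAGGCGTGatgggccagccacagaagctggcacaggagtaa
Apoc2: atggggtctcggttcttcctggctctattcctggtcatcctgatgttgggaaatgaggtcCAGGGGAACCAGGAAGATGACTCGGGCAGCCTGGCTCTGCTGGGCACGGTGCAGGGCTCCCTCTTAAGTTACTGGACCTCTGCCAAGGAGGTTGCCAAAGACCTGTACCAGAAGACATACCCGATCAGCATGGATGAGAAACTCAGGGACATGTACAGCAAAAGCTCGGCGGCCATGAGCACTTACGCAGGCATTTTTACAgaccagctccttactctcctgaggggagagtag
The Apoa5 transcript has 47 codons, of which 17 were counted (codons 21 to 37). It shares its coding bases from the start codon for 140 bases with an isoform of 368 codons, and all 17 counted codons lie in that stretch, so the RPFs of the short and the full-length isoform are counted together there and the rest of the full-length isoform is not counted. The transcript held 41.4% of the gene's RNA, in TPM, the usual measure of transcript abundance per length. Apoc2 has 97 codons, 67 of them counted. An annotated read-through gene, Apoc2l, holds all 291 coding bases of Apoc2, and the RNA estimates divide reads between both genes: Apoc2l was given 153 to 470 RNA counts per library and Apoc2 69 to 246, whereas RPFs were aligned to Apoc2 almost alone (0 or 1 RPF count per library for Apoc2l). RNA values of Apoc2 are therefore also given with both genes summed, an alternative added after the data had been seen.

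The 250 bases upstream of the RefSeq start (GRCm38.p6) are shown for the 4 members whose RPFs were furthest below WT in BM livers at day 4, Apoa4, Apoc2, Apoa5 and Apoa1. Entries were found for 8 of the 10 members, with 12 windows, and not for Apoc1 and Apoc3. Capitals mark matches to 4 motifs searched on both strands: the E-box CACGTG that MYC and its partner MAX recognise, the TCF/LEF motif ATCAAAG, the nuclear receptor motif AGGTCA and the HNF4 motif CAAAGTCCA. For Apoa5, the upper of its 2 overlapping windows is printed.
Apoa4, chr9:46240594-46240843, plus strand: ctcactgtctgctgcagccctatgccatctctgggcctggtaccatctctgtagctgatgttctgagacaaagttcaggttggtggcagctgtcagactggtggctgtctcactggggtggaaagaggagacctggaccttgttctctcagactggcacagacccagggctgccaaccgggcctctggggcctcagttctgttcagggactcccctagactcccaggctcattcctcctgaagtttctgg
Apoc2, chr7:19677942-19678191, minus strand: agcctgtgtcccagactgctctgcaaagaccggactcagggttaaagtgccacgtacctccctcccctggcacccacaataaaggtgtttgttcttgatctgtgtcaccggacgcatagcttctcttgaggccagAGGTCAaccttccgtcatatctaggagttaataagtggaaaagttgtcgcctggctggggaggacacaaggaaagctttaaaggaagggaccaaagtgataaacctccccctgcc
Apoa5, chr9:46268358-46268607, plus strand: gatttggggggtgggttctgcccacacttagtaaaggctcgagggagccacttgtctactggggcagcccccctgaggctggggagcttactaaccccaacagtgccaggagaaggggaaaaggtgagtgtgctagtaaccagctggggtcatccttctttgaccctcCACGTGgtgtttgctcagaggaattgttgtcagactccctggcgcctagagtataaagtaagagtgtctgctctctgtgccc
Apoa1, chr9:46228380-46228629, plus strand: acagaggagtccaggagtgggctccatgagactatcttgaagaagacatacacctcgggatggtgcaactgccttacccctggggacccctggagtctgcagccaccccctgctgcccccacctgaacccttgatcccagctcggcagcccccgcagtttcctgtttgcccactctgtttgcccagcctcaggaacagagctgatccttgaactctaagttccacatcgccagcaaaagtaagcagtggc
Both Apoa5 windows held 1 E-box, which 6.02% of the 32817 windows of the same length hold. Apoc2 and 1 of the Apoa2 windows held 1 AGGTCA, which 14% of windows hold. No member window held the TCF/LEF motif (3.21% of windows) or the HNF4 motif (0.384%). A match describes the letters and is not evidence of binding.

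RPF totals were 9742197 to 14380713 per library and RNA totals 3254141 to 6540116. Of the genes that check the labels, RPFs of Glul, Axin2 and Lgr5, targets of β-catenin, were higher in B and BM at both days, and Myc RPFs were higher in M and BM. The target Notum was also higher in B and in BM at day 4 but did not pass in BM at day 10, where it had 71.9, 21.5 and 12.7 RPF CPM (counts scaled to the library size) against 22.9 to 33.2 in WT. With all mice, Myc RNA did not pass in M or BM at either day: its RNA CPM was 28.9 to 34.9 in M and 19.6 to 29.6 in BM at day 4, against 26.6 to 29.3 in WT, and 20.8 to 26.6 and 20.9 to 53 at day 10, against 22.1 to 43.7. Hepatocyte markers were abundant in every library (7 of the 8 listed were in the table, none at 0 throughout). Both libraries of BM mouse 1 at day 10 stood apart from those of the other BM mice of that day, with a chi-square per gene of 150 and 176 for RPFs and of 24.8 and 30 for RNA, where mice 2 and 3 differed by 10.1 and 2.96. Its Apoa5 RPF CPM was 31.1 against 83.9 and 90, and the calls of the members in BM at day 10 are also given without it. Mouse 1 held the higher levels of the β-catenin targets, with 26.7 RPF CPM of Axin2 against 10.5 and 6.2 and 116 of Lgr5 against 46.1 and 30, and the lower level of Myc, 58 against 121 and 164. Values without mouse 1 therefore rest on the 2 mice with fewer RPFs of these targets and more of Myc. In BM at day 10 without mouse 1, Myc RNA was called higher (0.70 ± 0.22, adjusted p = 0.0226) and Notum RPFs were called lower (-0.73 ± 0.23, adjusted p = 0.017). M mouse 3 at day 10 stood apart as well, by 42.8 and 47.4 for RPFs and 17.7 and 14.8 for RNA, where M mice 1 and 2 differed by 5.55 and 4.49. WT mouse 2 at day 10, which enters each comparison with WT of that day, differed from the other WT mice by 26.6 and 21.7 for RPFs and 18.3 and 21.5 for RNA, beside 15.4 and 6.87 between them. Leaving it out gave 9, 3 and 9 RPF calls of members in B, M and BM at day 10 (11%, 5.49% and 17.1% of genes lower). The RNA calls were then 3, 3 and 9 (6.91%, 5.55% and 20.5% of genes lower), and each of these calls was lower.

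Among the WT livers, Apoa2 carried the most RPFs per codon. On the scale of RPF CPM per counted codon, its median over the 6 WT mice was 51.9 (47 to 67.4), followed by Apoa1 at 41.4 (36.2 to 46.1), Apoe at 35.5 (32.5 to 39) and Apoc1 at 31.3 (30.5 to 39.5). Apoa2 lay above every other member in all WT mice, whereas Apoa1 overlapped Apoe and Apoe overlapped Apoc1. Apoc3 followed at 19.6 (16.4 to 21.2) and overlapped neither neighbour. Apoa5 (5.85, counted over only 17 codons) and Apob (4.94) came next and overlapped each other. Apoc2 (2.47), Apom (2.24) and Apoa4 (1.25) were at the low end, each overlapping the next, with Apoa4 spanning 0.675 to 1.88.

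On the RNA side, in TPM, Apoa2 was again highest with a WT median of 19814 (16895 to 27310), and Apoe at 13039 (10985 to 17721) and Apoa1 at 7822 (6675 to 10923) followed. Apoa2 and Apoe overlapped, and so did Apoc3 (1030) with Apoa5 (840), Apom (366) with Apoa4 (166), and Apoa4 with Apoc2 (101, without the reads given to Apoc2l). Apoc1 (4511) and Apob (2760) overlapped no neighbour. Without any scaling between libraries, the members took 4.16% to 4.27% of all RPFs in WT at day 4, 4.25% to 4.48% in B, 3.63% to 3.97% in M and 3.76% to 3.98% in BM. At day 10 these shares were 4.43% to 4.69%, 3.82% to 4.07%, 3.47% to 3.93% and 2.96% to 3.43%. Of all RNA, the members took 3.81% to 4.23% in WT, 4.39% to 4.82% in B, 3.89% to 4.17% in M and 3.98% to 4.37% in BM at day 4, and 4.68% to 5.09%, 3.96% to 4.33%, 3.82% to 4.13% and 2.96% to 3.74% at day 10. The shares in RNA counts of M and BM thus overlapped WT at day 4 and lay below it at day 10. In TPM, the members took 4.94% to 5.28% in M and 5.53% to 5.98% in B at day 4, above WT at 4.34% to 4.69%. BM took 3.91% to 4.55% of TPM at that day.

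**Figure D1:**
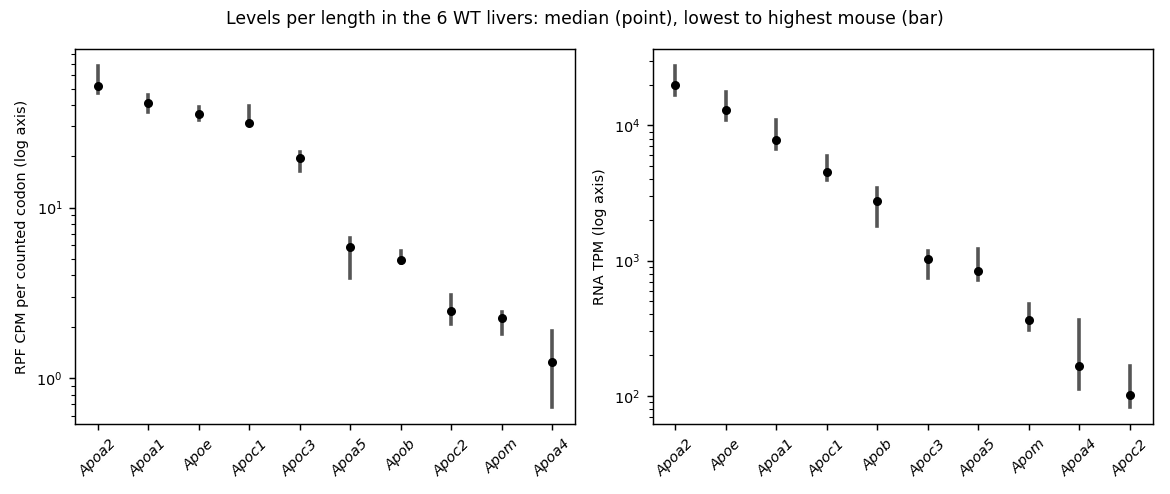
Levels of the 10 genes per length in the 6 WT livers, as RPF CPM per counted codon (left) and RNA TPM (right), both on log axes, with points at the median and bars from the lowest to the highest mouse. Apoa2 is at the top of both panels, and Apoa4 spans 0.675 to 1.88 RPF CPM per counted codon.

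No member was called between the WT livers of the 2 days. In the quasi-likelihood test of edgeR, with p-values adjusted over all genes after Benjamini and Hochberg and a threshold of 0.1, 0 of 10 were called for RPFs and 0 of 10 for RNA, against 4.44% and 2.32% of all genes. At an unadjusted p under 0.05 these counts were 0 and 1, the RNA of Apoc1 at -0.42 with an interval of -0.78 to -0.05 (edgeR adjusted p = 0.331), and DESeq2 also called 0 of each. Leaving out WT mouse 3 of day 10 gave 1 RNA call. The 95% interval of the RPF difference had a median half-width of 0.29 on the log2 scale over the members. For Apoe it was -0.26 to 0.31, and the widest was that of Apoa4, -0.37 to 0.88, whose RPF CPM was 567, 687 and 246 in the WT mice of day 10.

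Against WT, some or all apolipoprotein genes had fewer RPFs in every mutant genotype at both days, and with TMM scaling (edgeR's correction for the composition of a library) no member was called higher in any of these 6 comparisons. At day 4, 4 of 10 members fell in B (6.26% of all genes were lower), 9 of 10 in M (14.7%) and 10 of 10 in BM (24.7%). The median log2 RPF change of the members was -0.27 in B, -0.28 in M and -0.90 in BM, where the median of all genes lay between -0.01 and 0.01. At day 10, 9 of 10 fell in B (12.1%), 4 of 10 in M (8.8%) and 9 of 10 in BM (22.3%), with medians of -0.69, -0.43 and -1.03 beside all-gene medians of 0.01, -0.00 and 0.03.

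The size of these changes depended on the scaling. TMM factors of the RPF libraries of day 4 were 0.8355 to 0.8538 in WT and 1.107 to 1.179 in BM. With libraries scaled by their totals alone, the RPF median of all genes moved to 0.10, 0.23 and 0.42 in B, M and BM at day 4 and to 0.27, 0.25 and 0.41 at day 10, and that of the members was -0.16, -0.07 and -0.47, and -0.42, -0.18 and -0.65. The members called lower were then 2, 3 and 8 at day 4 (3.8%, 6.13% and 8.7% of all genes) and 9, 1 and 7 at day 10 (5.12%, 3.35% and 10.9%), and 1 was called higher, Apob in BM at day 4. In either direction, that scaling called 15.2%, 44.3% and 68.2% of all genes at day 4 and 39%, 33.8% and 54.2% at day 10, most of them higher. Calls lost with it were those of Apoa1 and Apom in B at day 4, of Apoa2, Apoa5, Apob, Apoc1, Apoc3 and Apoe in M at day 4, of Apom in BM at day 4, of Apoa4, Apoa5 and Apoe in M at day 10, and of Apob and Apoc3 in BM at day 10. Apoa1 in M at both days, Apoc2 and Apoa4 in B at both days, and Apoe, Apoc2, Apoa2, Apoa4, Apoa1 and Apoc1 in BM at both days were lower with either scaling. The log2 change of Apoa1 in BM was then -0.71 at day 4 and -1.16 at day 10. Which scaling is closer to the RNA content of the livers was not tested.

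Some of these counts rested on single mice. The 4 calls in B at day 4 became 2 without WT mouse 1, WT mouse 2, B mouse 2 or B mouse 3 and 1 without WT mouse 3, and 1 in a fit over all 8 groups. The 4 calls in M at day 10 became 1 without WT mouse 1, M mouse 1 or M mouse 2, and 2 without WT mouse 3. The 9 calls in M at day 4 ranged from 7 to 8 when 1 mouse was left out and were 5 in the fit over all 8 groups. Those in BM stayed at 9 to 10 at day 4 and 7 to 9 at day 10, and those in B at day 10 at 7 to 9. Without BM mouse 1, 9 of 10 members were still called in BM at day 10, where 32.9% of all genes were lower and 33.4% higher, with log2 changes of -0.80 for Apoa2, -1.06 for Apoe, -1.08 for Apoc2, -1.10 for Apom, -1.15 for Apoc1 and -1.24 for Apoa4. Without M mouse 3, 3 members were called in M at day 10 (11.6% of genes lower), Apoa1, Apoa4 and Apoa5, and Apoe was not.

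The summed RPF CPM of the hepatocyte markers, a list that holds Alb, Ttr and the fibrinogen genes, was also lower in the mutants as a sum. It was 91310 to 99977 in WT, 64835 to 82821 in B, 53703 to 68160 in M and 37492 to 46077 in BM at day 4. At day 10 it was 79216 to 103641 in WT, 42631 to 46297 in B, 47873 to 53189 in M and 30223 to 36384 in BM. Of its 7 tested genes, 4, 7 and 7 fell in B, M and BM at day 4, and 6, 6 and 5 at day 10. Not all of its genes fell: in BM at day 10 Ahsg RNA was called higher (0.43 ± 0.17, adjusted p = 0.0787), and without BM mouse 1 the list had 1 gene higher for RPFs, Hnf4a (0.35 ± 0.13, adjusted p = 0.0357), and 5 lower. Its part in the changes of the apolipoprotein genes was not tested.

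**Figure D2:**
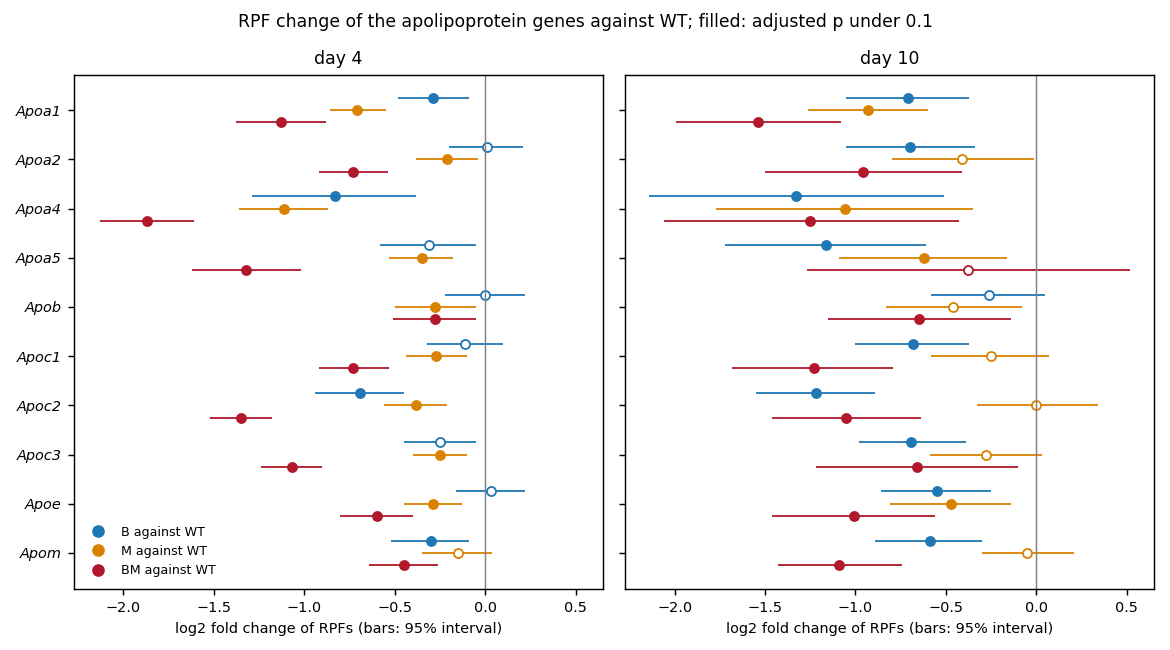
Log2 fold change of RPFs against WT for each gene at day 4 (left) and day 10 (right), with 95% intervals as bars and filled points for an adjusted p under 0.1. At day 4 the BM points lie to the left of the B and M points except for Apob, where M and BM are both at -0.28 with TMM scaling, as plotted, and BM is at 0.14 with library totals alone.

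Of the shell proteins of high density lipoprotein, Apoa1 separated all 4 genotypes at both days and Apoa2 did not. Apoa1, which takes up cholesterol from cells, had RPF CPM of 9596, 9657 and 9710 in WT at day 4 and of 8346, 8051 and 7565 in B. It had 6070, 5512 and 5764 in M, and 3910, 5021 and 4086 in BM. The 4 genotypes did not overlap, in the order WT, B, M and BM. Apoa1 RPFs were 18.1% lower in B (log2 change -0.29 ± 0.09 SE, adjusted p = 0.0758), 38.7% lower in M (-0.71 ± 0.07, adjusted p = 1.45e-04) and 54.3% lower in BM (-1.13 ± 0.11, adjusted p = 1.65e-05). The call in B was lost without WT mouse 1, 2 or 3, B mouse 2 or B mouse 3, at log2 changes of -0.32 to -0.25.

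At day 10, Apoa1 RPF CPM was 8482, 9801 and 10793 in WT, 5632, 5718 and 6634 in B, 5175, 4947 and 5159 in M, and 3377, 3378 and 3345 in BM. The same order held with no overlap, and the BM mice were close to each other. The log2 changes were -0.71 ± 0.15 in B (adjusted p = 0.0132), -0.93 ± 0.14 in M (adjusted p = 0.00754) and -1.54 ± 0.20 in BM (65.6% lower, adjusted p = 0.00142). No mouse left out ended these calls, and without BM mouse 1 the BM change was again -1.54.

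Apoa2 is the second protein of that shell. At day 4 its RPF CPM was 3681, 4091 and 3788 in WT and 4166, 3847 and 3705 in B, a log2 change of 0.01 ± 0.09, with an interval of -0.20 to 0.21. It was 3409, 3074 and 3293 in M and 2275, 2349 and 2239 in BM, so that the M and BM mice lay below all WT mice. The log2 change of Apoa2 was -0.21 ± 0.08 in M (adjusted p = 0.0674) and -0.73 ± 0.09 in BM (adjusted p = 5.48e-05). The M call was lost without WT mouse 2 or 3 or any M mouse (-0.25 to -0.17), and with library totals alone the M value was 0.00. At day 10, B had 2543, 2451 and 2440 against 3685, 3382 and 4850 in WT, below all of them (-0.70 ± 0.16, adjusted p = 0.0162). BM had 1611, 2275 and 2305 (-0.96 ± 0.24, adjusted p = 0.0166), and M had 3086, 3267 and 2657, with a log2 change of -0.41 that did not pass (adjusted p = 0.163).

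Apoa4, which travels with high density lipoprotein and is made in larger amounts by the intestine, had the lowest folds of all members in each genotype at day 4. Its RPF CPM was 345, 446 and 469 in WT, 209, 173 and 331 in B, 185, 195 and 188 in M, and 113, 105 and 120 in BM. All mutant mice lay below the WT mice, and BM lay below M. The log2 change was -0.83 ± 0.21 in B (adjusted p = 0.0307, lost without WT mouse 3), -1.11 ± 0.11 in M (adjusted p = 1.42e-04) and -1.87 ± 0.12 in BM (72.7% lower, adjusted p = 5.67e-07).

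At day 10, Apoa4 was uneven in WT, with 567, 687 and 246 RPF CPM. The B mice had 155, 165 and 282, the M mice 235, 242 and 245, and the BM mice 211, 176 and 251. WT mouse 3 lay among the B and BM mice, so B and BM overlapped WT, while M lay just below it. The log2 changes were -1.33 ± 0.36 in B (adjusted p = 0.0349), -1.06 ± 0.31 in M (adjusted p = 0.061) and -1.25 ± 0.35 in BM (adjusted p = 0.0277). The B call was lost without WT mouse 1 or B mouse 2, and the M call without WT mouse 1 or 2 or M mouse 1 or 2, while the BM value ranged from -1.58 to -0.97 and stayed called. Of the enterocyte markers, 3 of 6 were in the RPF table, with a summed level of 93.8 to 141 RPF CPM in all mice of day 4 and, at day 10, of 122 to 150 in WT, 58.4 to 101 in B, 78.7 to 88.8 in M and 12.2 to 22.1 in BM. Fabp2 of that list fell in B, M and BM at day 10, with log2 changes of -0.73, -0.66 and -3.02, and 1 of the 3 was at 0 in every WT mouse of day 4. All 6 markers were in the RNA table, where 4 were at 0 in every WT mouse of day 4 and 4 in every WT mouse of day 10. Their part in the Apoa4 values was not tested.

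**Figure D3:**
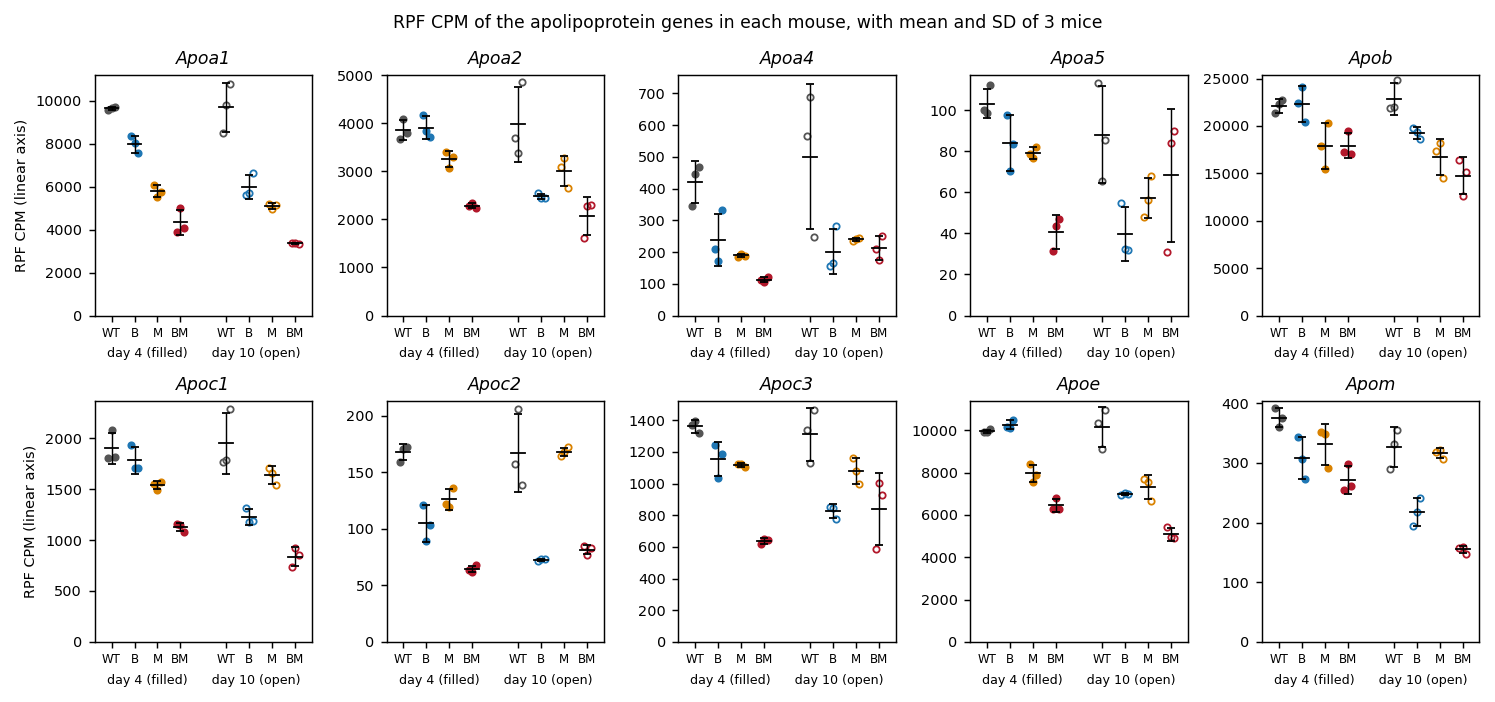
RPF CPM of each gene in each mouse on linear axes from 0, filled at day 4 and open at day 10, with the mean and SD of 3 mice as lines. Apoa1 shows 4 separate levels at both days, while Apoc2 of M at day 10 (164 to 172) sits at the WT level.

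Apob, the scaffold of very low density lipoprotein, had the smallest change of the 10 members in BM at day 4, and its direction there turned with the scaling. Its RPF CPM at day 4 was 21323, 22281 and 22744 in WT, 22419, 24158 and 20373 in B, 17873, 15430 and 20269 in M, and 17250, 19437 and 17035 in BM. The M and BM mice lay below WT but overlapped each other, and B spanned the WT range. The log2 change was -0.28 ± 0.10 in M (adjusted p = 0.0677) and the same in BM (adjusted p = 0.0493), and B was at -0.00 ± 0.10. With library totals alone, the M value was -0.07 (adjusted p = 0.565) and BM was called higher at 0.14 ± 0.07 (adjusted p = 0.0914). Both calls hung on most single mice: the M call was lost without any WT mouse or M mouse 1 or 2 (-0.40 to -0.18), and the BM call without WT mouse 2 or 3 or BM mouse 1 or 3 (-0.34 to -0.24).

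At day 10, Apob RPF CPM was 21865, 21948 and 24813 in WT, 19804, 19406 and 18586 in B, 17365, 18204 and 14541 in M, and 16424, 12660 and 15184 in BM. All mutant mice lay below WT. Only the change in BM passed (-0.65 ± 0.22, adjusted p = 0.0512), and it was lost with library totals alone (-0.26, adjusted p = 0.318) and without WT mouse 1 or 3 or BM mouse 2 or 3 (-0.73 to -0.55). The values for B (-0.26, interval -0.58 to 0.05, adjusted p = 0.231) and M (-0.46, interval -0.83 to -0.08, adjusted p = 0.107) did not pass.

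Apoe, the receptor ligand of remnant particles, was at the WT level in B at day 4. Its RPF CPM was 9927, 9912 and 10049 in WT, 10170, 10114 and 10511 in B, 8409, 7570 and 7908 in M, and 6277, 6807 and 6297 in BM. B lay above WT by a log2 change of 0.03 ± 0.09 that did not pass (adjusted p = 0.903), and M and BM lay below in separate ranges. Apoe fell by 0.29 in M (SE 0.07, adjusted p = 0.0139, but -0.08 and not called with library totals alone) and by 0.60 in BM (SE 0.09, adjusted p = 3.23e-04).

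At day 10, Apoe RPF CPM was 10352, 9127 and 10963 in WT, 6955, 7030 and 6969 in B, 7708, 7554 and 6672 in M, and 5420, 4937 and 4889 in BM. All mutant mice were below WT, BM was below the others, and B and M overlapped. The log2 changes were -0.55 ± 0.14 in B (adjusted p = 0.0225, lost without B mouse 2), -0.47 ± 0.15 in M (adjusted p = 0.0724, lost without WT mouse 1 or 3 or any M mouse) and -1.01 ± 0.20 in BM (50.4% lower, adjusted p = 0.00659). The counted Apoe transcript held 21.9% of the gene's TPM and that of Apoa2 29.5%. RPFs of other isoforms enter these values only where they share the counted sequence, and how much they share was not examined.

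Of the genes that act on lipoprotein lipase, Apoc2, its cofactor, was below WT in all 3 mutants at day 4. Its RPF CPM was 159, 171 and 172 in WT, 121, 88.9 and 103 in B, 122, 119 and 136 in M, and 63.7, 62 and 67.9 in BM. All mutant mice lay below WT, B and M overlapped, and BM lay below both. Apoc2 fell by 0.69 in B (SE 0.11, adjusted p = 0.00322), by 0.38 in M (SE 0.08, adjusted p = 0.006) and by 1.35 in BM (60.8% lower, SE 0.08, adjusted p = 3.58e-07), and no mouse left out ended these calls.

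At day 10, Apoc2 RPF CPM was 157, 206 and 139 in WT, 71.6, 72.9 and 73.6 in B, 164, 168 and 172 in M, and 85, 77.2 and 82.7 in BM. The livers with the β-catenin allele, B and BM, lay below all others, and the M mice lay inside the WT range. Apoc2 was 57% lower in B (-1.22 ± 0.15, adjusted p = 0.00105) and 51.7% lower in BM (-1.05 ± 0.18, adjusted p = 0.00407), whereas the M value was 0.00 with an interval of -0.33 to 0.34. No mouse left out ended the calls in B and BM. Apoc4, a neighbour of Apoc2 that is no member, did not pass for RPFs in any comparison with WT with all mice, at log2 values from -0.28 to 0.18. Its RNA was called higher in B at day 4 (0.37 ± 0.10, adjusted p = 0.0562) and, without BM mouse 1, lower in BM at day 10 (-0.37 ± 0.13, adjusted p = 0.0322).

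Apoc3, the brake on lipolysis, had 1368, 1397 and 1318 RPF CPM in WT at day 4, 1245, 1038 and 1186 in B, 1126, 1123 and 1106 in M, and 616, 650 and 644 in BM. BM was set apart from the other genotypes, and B and M overlapped below WT. Apoc3 fell by 0.25 in M (SE 0.07, adjusted p = 0.0188, but -0.04 and not called with library totals alone) and by 1.07 in BM (52.4% lower, SE 0.08, adjusted p = 1.88e-06). The B value of -0.25 did not pass (adjusted p = 0.139), but did without B mouse 1.

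At day 10, Apoc3 RPF CPM was 1340, 1132 and 1462 in WT, 853, 846 and 774 in B, 1163, 1079 and 1000 in M, and 584, 1005 and 930 in BM. B lay below WT and M without overlap, and of the BM mice, mouse 1 lay below B while the others lay above it. Apoc3 fell in B by 0.69 (SE 0.13, adjusted p = 0.00794) and in BM by 0.66 (SE 0.24, adjusted p = 0.0664), or by 0.45 without BM mouse 1 (SE 0.15, adjusted p = 0.0254). The BM call was lost without WT mouse 1 or 3 or BM mouse 3, and with library totals alone (-0.28, adjusted p = 0.318).

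Apoa5, a plasma protein that raises lipolysis, was at low RPF levels over its 17 counted codons. At day 4 it had 100, 98.6 and 112 RPF CPM in WT, 97.8, 70.4 and 83.6 in B, 78.7, 76.5 and 82.1 in M, and 31.5, 43.5 and 47 in BM. BM lay far below the other groups, and B and M lay below WT. Apoa5 fell in M (-0.35 ± 0.08, adjusted p = 0.00781, but -0.14 and not called with library totals alone) and in BM (60% lower, -1.32 ± 0.14, adjusted p = 2.00e-05), and the value in B was -0.31 (adjusted p = 0.144, called without B mouse 1). 

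At day 10, Apoa5 was spread widely among the BM mice. The WT mice had 113, 65.5 and 85.6 RPF CPM, the B mice 55, 32.3 and 31.9, the M mice 48, 56.1 and 67.7, and the BM mice 31.1, 83.9 and 90. BM mice 2 and 3 lay within the WT range and mouse 1 below it. Apoa5 fell in B (55.4% lower, -1.16 ± 0.25, adjusted p = 0.0124) and in M (-0.62 ± 0.20, adjusted p = 0.0858, lost without WT mouse 1 or 3 or M mouse 1 or 2). The BM value was -0.38 with an interval of -1.27 to 0.52 (adjusted p = 0.47), and -0.03 without BM mouse 1.

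Apoc1, which inhibits uptake and lipolysis of particles, had 1805, 2082 and 1822 RPF CPM in WT at day 4, 1933, 1711 and 1708 in B, 1554, 1495 and 1570 in M, and 1155, 1152 and 1083 in BM. It fell in M (-0.27 ± 0.08, adjusted p = 0.0262, but -0.06 and not called with library totals alone) and in BM (-0.73 ± 0.09, adjusted p = 6.13e-05), which lay below WT without overlap, while B overlapped WT. At day 10, the values were 1771, 1790 and 2292 in WT, 1319, 1183 and 1184 in B, 1711, 1661 and 1542 in M, and 735, 924 and 852 in BM. Apoc1 fell in B (-0.68 ± 0.14, adjusted p = 0.0108) and in BM (57.5% lower, -1.23 ± 0.19, adjusted p = 0.00302). The M mice lay just below WT, at -0.25, which did not pass (adjusted p = 0.278).

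Apom, the sphingosine-1-phosphate carrier, did not pass in M at either day. At day 4 it had 392, 361 and 376 RPF CPM in WT, 344, 307 and 273 in B, 352, 349 and 292 in M, and 255, 298 and 261 in BM. All mutant mice lay below WT, and B, M and BM overlapped in part. Apom fell in B (-0.30 ± 0.10, adjusted p = 0.0894, lost without any WT mouse or B mouse 2 or 3) and in BM (-0.45 ± 0.09, adjusted p = 0.00163, but -0.03 and not called with library totals alone), and its M value was -0.15 (adjusted p = 0.245). 

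At day 10, Apom RPF CPM was 290, 332 and 356 in WT, 195, 218 and 242 in B, 318, 322 and 306 in M, and 158, 159 and 148 in BM. M lay inside the WT range, and B and BM lay below it in separate ranges. Apom fell by 0.59 in B (SE 0.13, adjusted p = 0.015) and by 1.09 in BM (52.9% lower, SE 0.15, adjusted p = 0.00189). The M value was -0.05, with an interval of -0.30 to 0.21.

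Setting M directly against B asked which of the alleles gave the lower level. At day 4, Apoa1 (-0.45 ± 0.10, adjusted p = 0.011) and Apoe (-0.35 ± 0.10, adjusted p = 0.0339) were lower in M than in B, 2 of 10 members against 13.8% of all genes. Apoe lost the call without M mouse 1, and DESeq2 called 4 members. With library totals alone Apoc2 was called higher in M beside these 2, where 7.05% of genes were lower and 25.2% higher. At day 10, 4 members were higher in M, against 14.7% of genes. These were Apoc2 (2.27-fold, 1.18 ± 0.09, adjusted p = 2.93e-04), Apom (0.51 ± 0.11, adjusted p = 0.0175), Apoc1 (0.39 ± 0.11, adjusted p = 0.0345) and Apoc3 (0.37 ± 0.11, adjusted p = 0.0451). The calls of Apoc1 and Apoc3 were lost without B mouse 2 or M mouse 1 or 2, which left 2, and without M mouse 3 Apoa2 was also called higher (0.37 ± 0.09, adjusted p = 0.0263), with 18.5% of genes higher. Apoa1 pointed the other way at day 10, with M below B by a log2 value of 0.26 that did not pass (adjusted p = 0.14).

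BM against M gives the difference made by the β-catenin allele where MYC is present. At day 4, 9 of 10 members were lower in BM (19.3% of genes), all but Apob, at -0.01 with an interval of -0.31 to 0.29. With library totals alone, 7 were lower, without Apoe and Apom, and Apob was called higher, where 9.33% of genes were lower and 39% higher. The largest were Apoc2 (-0.98 ± 0.08, adjusted p = 3.43e-05), Apoa5 (-0.98 ± 0.13, adjusted p = 6.66e-04), Apoc3 (-0.83 ± 0.07, adjusted p = 6.02e-05) and Apoa4 (-0.76 ± 0.07, adjusted p = 8.65e-05). Leaving out 1 mouse gave 6 to 9 calls: Apoe was lost without M mouse 1 or BM mouse 1 or 3 (-0.36 to -0.28), Apom without M mouse 1 or 2 or BM mouse 1 or 3 (-0.38 to -0.25), and Apoa1 without M mouse 1 or BM mouse 3 (-0.54 to -0.35).

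At day 10, 5 members were lower in BM than in M (16.7% of genes): Apoc2 (-1.06 ± 0.13, adjusted p = 0.00338), Apom (-1.05 ± 0.14, adjusted p = 0.00463), Apoc1 (-0.99 ± 0.18, adjusted p = 0.0109), Apoa1 (-0.62 ± 0.16, adjusted p = 0.0341) and Apoe (-0.55 ± 0.17, adjusted p = 0.0623). The count was 3 without M mouse 1, M mouse 2 or BM mouse 2, and 4 with library totals alone (11.6% of genes lower). Without BM mouse 1, 7 members were called, where 28.6% of genes were lower and 30.5% higher, now with Apoa2 lower (-0.36 ± 0.12, adjusted p = 0.0458) and Apoa5 higher in BM (0.63 ± 0.15, adjusted p = 0.0133). Without M mouse 3, Apoa2 was called beside the 5 (-0.66, adjusted p = 0.0973), with 14% of genes lower. Apoa5 with all mice was at 0.24, with an interval of -0.63 to 1.12.

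Cytoplasmic RNA of the members gave fewer calls than RPFs in each comparison with WT, all of them lower with TMM scaling. At day 4, 2 of 10 members were lower in B (3.73% of genes), 3 in M (10.3%) and 9 in BM (20.6%), and at day 10, 5 in B (7.48%), 2 in M (7.12%) and 8 in BM (22.8%). With library totals alone, the RNA median of all genes moved to 0.18, 0.36 and 0.54 at day 4 and to 0.24, 0.20 and 0.43 at day 10, and 1, 2 and 7 members were lower at day 4 (2.07%, 2.6% and 5.48% of all genes, of 16.5%, 53.3% and 72.7% called in either direction) and 3, 2 and 7 at day 10 (3.77%, 2.84% and 11.4%, of 23.4%, 19.7% and 58.9%). Then Apoa5 and Apoc3 in M and Apob in BM were called higher at day 4. Apoa4 and Apoa1 had the lowest RNA folds in BM at day 4, -1.91 ± 0.11 (adjusted p = 2.76e-08) and -1.35 ± 0.15 (adjusted p = 1.24e-05). Apoa4 RNA CPM was 204, 254 and 245 in WT and 60.9, 60.7 and 65.2 in BM, with B (102 to 175) and M (102 to 122) between them. Apoa1 RNA CPM was 5677, 6095 and 4965 in WT and 1874, 2771 and 1932 in BM, again without overlap.

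The RNA calls in B at day 4 were Apoa4 (-0.81 ± 0.16, adjusted p = 0.0106) and Apom (-0.38 ± 0.11, adjusted p = 0.0691), and in M Apoa4 (-1.10 ± 0.11, adjusted p = 1.67e-05), Apoa1 (-0.83 ± 0.12, adjusted p = 2.57e-04) and Apoe (-0.30 ± 0.11, adjusted p = 0.0852, but 0.06 with library totals alone). That call of Apoe was lost without WT mouse 1 or 2 or any M mouse (-0.37 to -0.26). The RNA of Apob was the exception in BM at day 4, at -0.24 with an interval of -0.56 to 0.08, and at 0.31 and called higher with library totals alone. Apom RNA, called lower in BM at day 4, was at 0.02 with that scaling. The 2 calls in B were 1 without WT mouse 1, WT mouse 3, B mouse 2 or B mouse 3. The fit over all 8 groups left 0 of them, and DESeq2 made 5 calls in M. At day 10 the 2 calls in M were Apoa1 (-1.05 ± 0.16, adjusted p = 0.00274) and Apoa4 (-1.02 ± 0.28, adjusted p = 0.0444), or 1 without WT mouse 1 or M mouse 1, and DESeq2 made 4.

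In B at day 10 the RNA of Apoa1, Apoa4, Apoa5, Apoc2 and Apom was lower, by 0.44 (Apom) to 1.19 (Apoa4) on the log2 scale. B mouse 1 stood above the other B mice in many members: its Apoa1 RNA CPM was 4294 against 2971 and 3218, and its Apoc1 1138 against 567 and 445. The 5 calls became 0 when B mouse 2 was left out. Leaving out WT mouse 1, 2 or 3 gave 1, 3 and 2 calls. In BM at day 10, all but Apoa5 (-0.24, interval -0.95 to 0.46) and Apoc3 (-0.29, interval -0.60 to 0.02) were lower, led by Apoa1 (-1.54 ± 0.16, adjusted p = 2.45e-04), Apoa4 (-1.52 ± 0.33, adjusted p = 0.0075) and Apom (-1.38 ± 0.18, adjusted p = 6.12e-04). Apom RNA CPM was 230, 246 and 264 in WT and 119, 84.8 and 80.3 in BM. The same 8 were called without BM mouse 1, where 29.2% of genes were lower.

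Between M and B, the RNA of Apoa1, Apoa2, Apoc1 and Apoe was lower in M at day 4, by 0.32 (Apoc1) to 0.55 (Apoa1), 4 members against 9.63% of genes. With library totals alone, Apoa1 was lower (4.16% of genes) and Apoa5, Apoc3 and Apom were higher (23%). Only 1 of these calls was left without M mouse 1, 2 or 3 and in the fit over all 8 groups. At day 10, Apoc2 alone was higher in M (0.97 ± 0.27, adjusted p = 0.0356), against 10.2% of genes. That count was 3 without B mouse 1, 2 without B mouse 3 and 0 without B mouse 2 or M mouse 1. BM against M gave 9 lower members at day 4 (15.9% of genes), all but Apob, and 7 at day 10 (16.6%), all but Apoa5, Apob and Apoc3. With library totals alone, 8 were lower (9.27% of genes) and Apob was called higher (33.6%) at day 4, and 5 were lower (10.2%) at day 10, without Apoa1 and Apoa4. With TMM the latter count was 4 without M mouse 1 or BM mouse 3, and 3 without M mouse 2 or BM mouse 2. Without BM mouse 1 it was 9 (25.5% of genes lower and 24.9% higher), now with Apob lower (-0.56 ± 0.21, adjusted p = 0.0523) and Apoa5 higher in BM (0.45 ± 0.18, adjusted p = 0.0658).

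With the RNA of Apoc2 and Apoc2l summed, the calls of Apoc2 RNA in BM held at smaller sizes, -0.88 ± 0.14 at day 4 (adjusted p = 1.83e-04) and -0.73 ± 0.17 at day 10 (adjusted p = 0.0111), and so did those of BM against M (-0.73 at day 4 and -0.62 at day 10). Those of B at day 10 (-0.66, adjusted p = 0.111) and of M against B at day 10 (0.55, adjusted p = 0.147) did not. Without summing, the value of BM at day 4 was -1.30, so the RNA change of Apoc2 depends on how its reads are divided.

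No apolipoprotein gene was called for TE. The counts were 0 of 10 in each of the 6 comparisons with WT, 60 tests in all, by edgeR's interaction test and by DESeq2. At day 4 the share of all genes called was 0.0488% for B, 0.971% for M and 2.23% for BM, and at day 10 it was 0.0564%, 0% and 0.259%. At an unadjusted p under 0.05 there was 1 member in the 60 tests, Apoc3 in B at day 10, at -0.52 ± 0.24 (interval -1.04 to -0.01), whose adjusted p in edgeR's test was 0.936. The members' log2 TE values ran from -0.52 to 0.28. With the RNA of Apoc2 and Apoc2l summed, that of Apoc2 went lower, to -0.56 ± 0.18 in B (adjusted p = 1) and -0.48 ± 0.17 in BM (adjusted p = 0.278) at day 4 and -0.56 ± 0.32 in B at day 10 (adjusted p = 1), where it had been -0.42, -0.06 and -0.22, and no sum gave a call.

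The precision of these tests differed between days. At day 4, the intervals of BM TE reached from -0.59 to 0.64 over the members, and at day 10 from -1.37 to 1.40, in this fit, which takes the libraries of a mouse as independent. For Apoa1 in BM the TE value was 0.21 ± 0.21 at day 4 and -0.02 ± 0.24 at day 10, beside RPF changes of -1.13 and -1.54. For Apoa4 in BM at day 4 it was 0.03 ± 0.16, beside an RPF change of -1.87. When the RPF and RNA libraries of a mouse were joined by a block, the SEs of BM at day 10 were 0.14 to 0.25 over the members, where they had been 0.23 to 0.56. No member of BM was called at either day with that block, where 6.17% of all genes were called at day 4 and 5.21% at day 10. In that fit Apoc3 in B at day 10 was called (-0.49 ± 0.14, adjusted p = 0.072), where 2.6% of all genes were: its RPF CPM was 853, 846 and 774 while its RNA CPM was 336, 231 and 204, which overlapped WT RNA at 249 to 313. The call was kept without B mouse 3 (-0.60, adjusted p = 0.00306) and lost without any other mouse, at -0.31 without B mouse 1 (adjusted p = 0.285) and -0.57 to -0.44 without B mouse 2 or a WT mouse (adjusted p = 0.118 to 0.385). Without BM mouse 1, Apom in BM at day 10 was called as higher TE (0.47 ± 0.17, adjusted p = 0.0744), where 10.4% of genes were called higher.

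**Figure D4:**
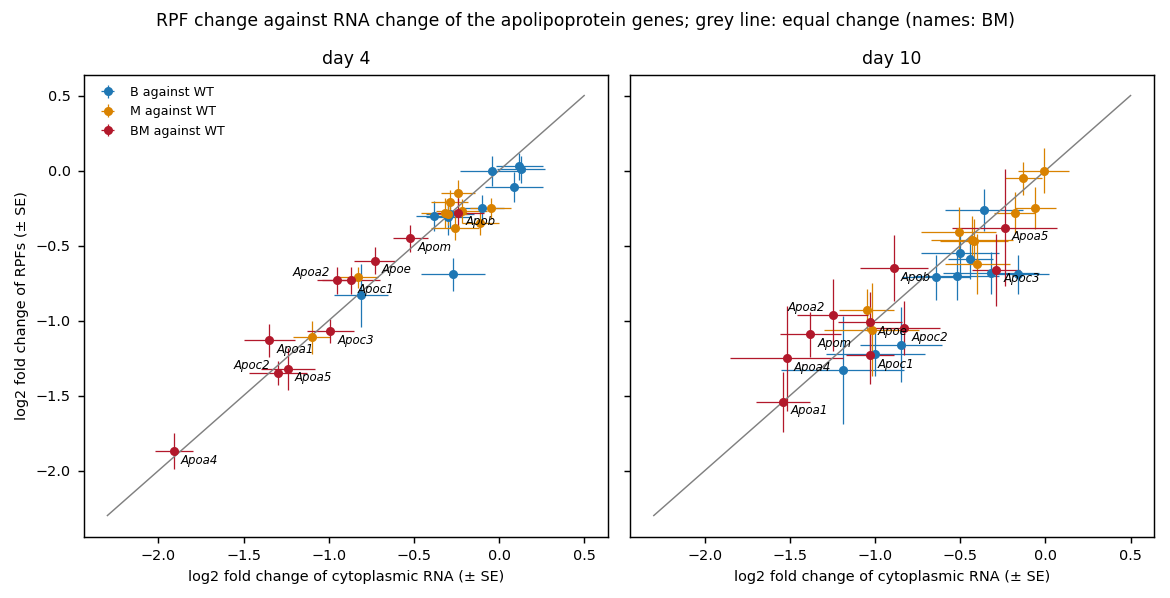
Log2 fold change of RPFs against that of cytoplasmic RNA for each gene, genotype and day, each against WT, with bars of 1 SE and a grey line of equal change. The points run along the line, from Apoa4 of BM at day 4 (-1.91 for RNA and -1.87 for RPFs) up to values near 0. Some lie off it, such as Apoc3 of B at day 10, below the line with a TE value of -0.52.

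Testing whether an effect differed between days gave calls in B and BM. In B, the RPF effect was lower at day 10 than at day 4 for 5 members (8.83% of genes): Apoe (-0.58 ± 0.14, adjusted p = 0.0181), Apoa2 (-0.70 ± 0.18, adjusted p = 0.0241), Apoc1 (-0.57 ± 0.17, adjusted p = 0.0432), Apoa5 (-0.85 ± 0.30, adjusted p = 0.0893) and Apoc3 (-0.43 ± 0.16, adjusted p = 0.0914). These are differences of 2 log2 changes, each against the WT mice of its day. Of these, Apoe and Apoa2 were within 0.03 of WT at day 4 and below all WT mice at day 10. Leaving out 1 mouse gave 2 to 6 calls, with 2 without WT mouse 1 or 3 or B mouse 1 of day 4, and 3 without WT mouse 2 or B mouse 3 of day 4 or WT mouse 3 or B mouse 2 of day 10. Apoe and Apoa2 kept their calls each time, and with library totals alone 3 were called, Apoe, Apoa2 and Apoc1 (5.17% of genes lower).

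The RNA of B gave 0 calls between days (9.31% of genes), with 2 members at an unadjusted p under 0.05 and 1 called by DESeq2. Without WT mouse 2 of day 10 there were 2, where 10.8% of genes were called. Without B mouse 1 of day 10 there were 5, a count that is not set against all genes here. In M, 0 members were called for RPFs (1.18% of genes) and 0 for RNA (1.2%), with 1 and 0 at an unadjusted p under 0.05 and 0 by DESeq2. Without WT mouse 2 of day 10, 1 RPF call appeared (1.38% of genes). The intervals of the M differences reached from -0.76 to 0.86 for RPFs.

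In BM, the RPF effect was lower at day 10 for Apom (-0.63 ± 0.16, adjusted p = 0.0141) and Apoc1 (-0.50 ± 0.20, adjusted p = 0.0811), 2 members against 18.6% of genes. Without BM mouse 1 of day 10, where 31.5% of genes were lower and 25.8% higher, there were 7: Apoe, Apob, Apom, Apoa1 and Apoc1 were lower, and Apoa5 (1.28 ± 0.26, adjusted p = 8.85e-04) and Apoc3 (0.61 ± 0.15, adjusted p = 0.00453) were higher at day 10. Without WT mouse 2 of day 10 there were 4, where 15.9% of genes were lower and 14.4% higher. With library totals alone there were also 4, Apoe, Apom, Apoa1 and Apoc1, all lower, where 18.6% of genes were lower and 14.4% higher. Apom kept its call whichever mouse was left out. Apoc1 lost it, leaving 1, without WT mouse 1 or 3 or any BM mouse of day 4, and without WT mouse 3 or BM mouse 3 of day 10.

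For RNA, the BM effect was lower at day 10 for Apom (-0.86 ± 0.20, adjusted p = 0.0082) and Apob (-0.66 ± 0.26, adjusted p = 0.0824), against 16.6% of genes, and higher for Apoc3 (0.70 ± 0.22, adjusted p = 0.0333) and Apoa5 (0.99 ± 0.39, adjusted p = 0.0809), against 13.4%. Apoc3 RNA CPM in BM was 132, 181 and 143 at day 4 and 221, 254 and 234 at day 10, without overlap, and that of Apoa5 was 218, 375 and 317 and then 329, 558 and 807. With library totals alone Apoa5 was not called. Apom and Apoc3 kept their calls whichever mouse was left out, and Apob and Apoa5 each lost theirs without 9 of the 12 mice in turn. The count was 2 without WT mouse 2 or 3 or BM mouse 1 or 3 of day 4, and without WT mouse 3 or BM mouse 2 or 3 of day 10. Without BM mouse 1 of day 10 the 4 values were -1.07 for Apom, -0.78 for Apob, 0.74 for Apoc3 and 1.26 for Apoa5, all called.

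Other lipoprotein proteins were counted for context, over a list of 11 genes, 10 of them tested. Their RPFs gave 2 higher and 6 lower in B at day 4, 0 and 7 in M, and 1 and 7 in BM. At day 10 they gave 2 and 2 in B, 0 and 2 in M, and 0 and 5 in BM. Of all genes, 6.21%, 18.5% and 26.2% were higher in B, M and BM at day 4 and 13.1%, 10.6% and 24.5% at day 10. The acute-phase apolipoproteins Saa1 and Saa2, whose near-identical sequences make their separate counts uncertain, were far lower at day 4 (Saa1 -6.15 ± 0.70 in B and -6.75 ± 0.70 in BM) but higher in B at day 10 (Saa1 3.32 ± 0.82, adjusted p = 0.0233). The paraoxonase Pon3 (-0.98 ± 0.16, adjusted p = 0.00357) and Apon (-1.33 ± 0.17, adjusted p = 0.00147) fell in BM at day 10, also without BM mouse 1 (-1.10 and -1.22).

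Genes that load lipid onto Apob and carry the particle out of the cell were counted beside the same shares of all genes, which in B were also larger at day 10 than at day 4. Of 10 genes for assembly and secretion, 1 was higher and 0 lower in B at day 4, 1 and 1 in M, and 0 and 3 in BM. At day 10, 1 was higher and 7 lower in B, 0 and 3 in M, and 1 and 8 in BM, where the median log2 RPF change was -1.23. Mttp, which transfers lipid to nascent Apob, fell by 0.60 in B (SE 0.13, adjusted p = 0.0125) and by 1.53 in BM (SE 0.30, adjusted p = 0.00688) at day 10. Sort1 (-2.62 ± 0.58, adjusted p = 0.0114) and Tm6sf2 (-1.79 ± 0.35, adjusted p = 0.00699) fell further in BM, beside -0.65 for Apob itself. These values without BM mouse 1 were -1.94 for Mttp, -3.82 for Sort1 and -2.35 for Tm6sf2, and 2 genes of the list were higher and 8 lower.

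Of 9 receptors and uptake genes, 8 or 9 tested, 0 were higher and 1, 4 and 2 lower in B at day 4, M at day 4 and B at day 10, with 0 and 2 in M at day 10. BM had 1 higher and 5 lower at day 4 and 2 higher and 4 lower at day 10. The proteoglycan Sdc1 fell in BM at day 4 (-1.33 ± 0.11, adjusted p = 4.60e-06), and Vldlr, the receptor of very low density lipoprotein, was called higher in BM at day 10 (2.07 ± 0.82, adjusted p = 0.0801) but not without BM mouse 1 (0.45, adjusted p = 0.272), which left 1 gene of the list higher and 6 lower. Of 10 lipases, transfer proteins and their inhibitors, the higher and lower counts were 3 and 2 in B, 1 and 1 in M and 1 and 7 in BM at day 4, and 1 and 5, 1 and 3, and 1 and 6 at day 10. Lipg, endothelial lipase, rose in B at day 10 (2.05 ± 0.29, adjusted p = 0.00237), while Lipc, hepatic lipase, fell in BM at day 10 (-2.78 ± 0.30, adjusted p = 7.92e-04), and was at -3.15 without BM mouse 1, with 2 genes of the list higher and 6 lower.

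Of 4 sterol exporters, the counts were 0 and 0 in B, 2 and 1 in M and 0 and 1 in BM at day 4, and 0 and 1, 0 and 0, and 1 and 1 at day 10. Abca1, which hands cholesterol to Apoa1, fell in BM at both days (-0.44 ± 0.09, adjusted p = 0.00266 at day 4 and -0.63 ± 0.23, adjusted p = 0.0671 at day 10, or -0.79 without BM mouse 1, with 3 of the 4 then higher). Of 18 transcription factors known to act on apolipoprotein genes, 1 was higher and 2 lower in B, 0 and 6 in M and 0 and 9 in BM at day 4, and 1 and 8, 0 and 2, and 2 and 10 at day 10. Foxa3 fell in M (-1.50 ± 0.15, adjusted p = 1.58e-04) and BM (-1.63 ± 0.15, adjusted p = 7.85e-06) at day 4. Cebpa fell in B (-1.04 ± 0.15, adjusted p = 0.00249) and BM (-1.47 ± 0.19, adjusted p = 0.00156) at day 10. The value of Cebpa was -1.61 when BM mouse 1 was left out, and 5 of the factors were higher and 12 lower.

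The 2 genes with the most similar RPF pattern over the 24 mice were looked up for each member. Likeness was the root mean square difference of log2 RPF CPM after centring each gene, among 6755 genes with a mean of at least 10 CPM, and the points share libraries and genotypes. The nearest to Apoa1 were Pzp (0.15) and Vtn (0.17), and to Apoa2 Apoc1 (0.13) and Scp2 (0.14). For Apoc1 they were Apoa2 (0.13) and Serpind1 (0.13), for Apoc3 Azgp1 (0.13) and Cfhr2 (0.16), and for Apom C1rb (0.13) and Ambp (0.13). Apoe had Pgrmc1 (0.09) and Tecr (0.12) nearest, and Apob Tm9sf2 (0.10) and Hsd17b12 (0.10).

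Apoa4, Apoa5 and Apoc2 had no neighbour as close. The nearest to Apoa4 were Rhobtb1 and Cdh1 (0.43 each), to Apoa5 Selenop (0.29), and to Apoc2 Ctsc and Ifnar2 (0.26 each). Between members, Apoa2 and Apoc1, which lie on different chromosomes, were closest, and Apoa1 was nearest to Apoe at 0.23.

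Markers of other liver cells moved as well, and their sums are given in RPF CPM for WT, B, M and BM in turn. The 8 Kupffer cell markers summed to 736 to 853, 596 to 692, 469 to 1308 and 421 to 449 at day 4, and to 588 to 826, 662 to 973, 590 to 857 and 932 to 995 at day 10. Those of B and BM at day 4 lay below WT, and those of BM at day 10 above it. Of these markers, Cd5l (1.11 ± 0.17, adjusted p = 0.00288) and Vsig4 (0.88 ± 0.20, adjusted p = 0.0134) were the only RPF calls in BM at day 10, and in RNA Cd5l (1.02, adjusted p = 0.00227) and Vsig4 (0.35, adjusted p = 0.0852) were higher and Clec4f lower (-0.48, adjusted p = 0.0456). The 6 blood cell markers summed to 1051 to 1118, 827 to 1381, 524 to 735 and 451 to 630 at day 4, and to 923 to 1137, 1293 to 1900, 495 to 785 and 441 to 1902 at day 10. M lay below WT at both days, BM at day 4, and B lay above it at day 10. In B at day 10 the haemoglobin genes Hba-a1 (0.73) and Hbb-bt (0.70) rose while Alas2, an enzyme of haem synthesis, fell (-0.99, adjusted p = 0.0123), and in BM at day 10 Alas2 alone was called (-4.19).

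The 6 endothelial markers summed to 698 to 780, 714 to 793, 535 to 654 and 551 to 616 at day 4, and to 691 to 833, 559 to 680, 509 to 570 and 561 to 754 at day 10. The 6 stellate markers summed to 692 to 741, 669 to 770, 540 to 635 and 435 to 548 at day 4, and to 726 to 850, 404 to 602, 567 to 630 and 584 to 692 at day 10. Both lists lay below WT in M at both days, in B at day 10 and in BM at day 4, and the stellate list also in BM at day 10. Called markers went both ways in BM at day 10: Col1a1 was higher (1.42) and Reln (-1.47), Des (-1.20), Lrat and Colec11 lower, and Lyve1 was higher (2.36) and Clec4g (-0.69), Stab2 (-0.53) and Kdr lower. The 6 cholangiocyte markers summed to 85.7 to 134, 59.8 to 63.9, 43.9 to 63 and 36.1 to 53.9 at day 4, all mutants below WT, and to 43.7 to 84.3, 36.5 to 63.2, 53.6 to 100.0 and 35.9 to 63.5 at day 10, where all overlapped. The RPF calls in BM at day 10 without BM mouse 1 were 5 higher and 1 lower of the Kupffer markers, 3 and 1 of the blood, 2 and 3 of the endothelial, 1 and 4 of the stellate and 0 and 2 of the cholangiocyte markers. None of these lists had a marker at 0 in every mouse of any group. Kupffer cells also express Apoe, which was lower in BM at both days. The part of these cells in the values of Apoe and the other members was not tested.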

How the data were processed

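RPFs and cytoplasmic RNA were measured in 24 livers (48 libraries). Per the labels and methods, the authors trimmed reads with Cutadapt 1.18, removed duplicates by molecular identifiers, aligned RPFs to 1 protein-coding transcript per gene, the most abundant (GENCODE vM27), and deposited counts over the coding sequence. RNA was aligned with Bowtie2 2.3.5.1 and estimated with RSEM 1.3.3 as deposited expected counts and TPM per isoform. Here expected counts were summed per gene and rounded (at least 99.918% were whole), absent RPF lines were taken as 0, and TPM served for levels and isoform shares.

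In R 4.3.3, counts were filtered (filterByExpr, minimum 10, total 15), scaled by TMM and tested with edgeR 4.0.16 quasi-likelihood F tests within the groups compared, with Benjamini-Hochberg adjustment over all genes and a threshold of 0.1. TE was the interaction of group and library type. CPM used TMM factors over 24 libraries of a type. The lowest counts of a member in 1 library were 440 RPFs (Apoa5) and 69 RNA reads (Apoc2), and 3 mice a group limited the precision. DESeq2 1.42.0, other factors, no filter, a fit over all 8 groups, blocks and leaving out each mouse were the alternatives, and library totals in place of TMM, the summed Apoc2 and the mouse block without each mouse were added after seeing the data. Both libraries of a mouse come from the same lysate, and their deviations from group means correlated in all 24 mice, so that block pairs them.

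All members are named. Of lists for other lipoprotein proteins, assembly and secretion, receptors, lipases, sterol exporters, transcription factors and cell type markers, up to 3 called genes with the largest change per comparison could be named, and for each member the 2 most similar genes, of which 1 is not reported here. Apoc4, Glul, Axin2, Lgr5, Notum, Myc, Alb, Ttr, the fibrinogen genes and single cell type markers are named outside this rule, after their values were seen. The members and lists were chosen with earlier results of these data known. The main edgeR fits of RPFs and of TE were tested on simulated counts of WT and BM at day 4. The alternatives and the other comparisons were not.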

Additional observations from a re-analysis of the deposited data

Results flagged for a closer look

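The effect of a genotype on a member differed between the 2 days in 11 of 60 tests (10 members, 3 genotypes, RPFs and RNA), each a difference of log2 changes against the WT mice of the same day (day 10 minus day 4). For RPFs of B these were Apoe (-0.58), Apoa2 (-0.70), Apoa5 (-0.85), Apoc3 (-0.43) and Apoc1 (-0.57), all lower at day 10, against 8.83% of all genes. The calls of Apoc3, Apoa5 and Apoc1 were lost without 10, 9 and 4 of the 12 mice in turn. For RPFs of BM they were Apom (-0.63) and Apoc1 (-0.50), 2 of 10 members where 18.6% of all genes were lower, and Apoc1 lost its call without 7 of the 12 mice. For RNA of BM they were Apob (-0.66) and Apom (-0.86), lower at day 10, and Apoa5 (0.99) and Apoc3 (0.70), higher at day 10, where 16.6% of all genes were lower and 13.4% higher. The shares of BM are near those of all genes, and the RNA calls of Apob and Apoa5 were each lost without 9 of the 12 mice. The day 4 and day 10 mice were different animals.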

How the results depend on the processing

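Counts of members called moved by over 1.5 times under these settings, and the cause was not tested. In the fit over all 8 groups they were 1 for RPFs of B and 5 for RPFs of M at day 4, 0 for RNA of B at day 4, 1 for RNA of M against B at day 4 and 2 at day 10, and 6 for the RPF difference of the BM effect between days. With DESeq2 they were 4 for RPFs of M against B at day 4, 4 for that BM difference, 5 and 4 for RNA of M at day 4 and day 10, 2 for RNA of M against B at day 10 and 1 for the RNA difference of the B effect. With no filter on low counts they were 1 for the BM difference in RPFs, 5 for RNA of M at day 4 and 2 for the RNA difference of the B effect. Same replicate numbers in different groups did not correlate in every pair, so they share only a number. With the replicate number as a block, M gave 1 RPF call at day 10 and 6 RNA calls at day 4. With both libraries of a mouse as the block, TE of B at day 10 gave 1 call. With library totals in place of TMM, an alternative chosen after seeing the data, counts in either direction were 2, 3 and 1 for RPFs of B and M at day 4 and of M at day 10, 1 and 3 for RNA of B at day 4 and day 10, and 3 and 4 for the RPF differences of the B and BM effects between days. Under it these called values turned: Apoa2 RPFs in M (0.00), Apob RPFs in BM (0.14), Apoe RNA in M (0.06) and Apom RNA in BM (0.02), all at day 4. With Apoc2 and Apoc2l summed, also chosen after seeing the data, Apoc2 RNA in M against B at day 4, at 0.00 and not called, became -0.03.

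Leaving out 1 mouse gave these ranges of calls. For RPFs against WT they were 1 to 6 (B), 7 to 8 (M) and 9 to 10 (BM) at day 4, and 7 to 9, 1 to 3 and 7 to 9 at day 10. M against B gave 1 to 3 and 2 to 5, BM against M 6 to 9 and 3 to 7, and the day differences 2 to 6 (B), 0 to 1 (M) and 1 to 7 (BM). For RNA against WT they were 1 to 3, 2 to 4 and 9 at day 4, and 0 to 7, 1 to 3 and 8 to 9 at day 10. M against B gave 1 to 5 and 0 to 3, BM against M 7 to 9 and 3 to 9, and the day differences 0 to 5, 0 and 2 to 4. The WT days gave 0 for RPFs and 0 to 1 for RNA, and TE 0, except 0 to 1 in BM at day 10.

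Of the called values of single members, 643 of 822 kept their direction and call when 1 mouse was left out and 179 lost the call, and 694 of 762 kept both under the other settings while 64 lost the call. None turned direction when 1 mouse was left out (0 of 822), and 4 of 762 did under the other settings, all with library totals. Depth is lowest for Apoc2 RNA (from 69 reads) and Apoa5 RPFs (from 440), and its part in their spread was not tested.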
